A study of Mus musculus with 8 samples.

Results

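H19 and a set of imprinted genes that control growth were examined in CD8 T cells sorted from mouse tumours. Members were chosen by name from a list of 10 genes (H19, Igf2, Igf2r, Mest, Peg3, Plagl1, Dlk1, Meg3, Cdkn1c and Grb10). Of these, 9 were found among the 19673 genes of the table, and Dlk1 was not analysed here. The list was drawn up after H19 had been seen to be lower in knockout hosts, so the comparison of knockout with wild type is given for all members as a description. Hosts carried Py8119 tumours, which derive from a mammary tumour line of the mouse. They were either Mtdh knockout animals, abbreviated KO, or wild-type animals, abbreviated WT, and each genotype gave 4 libraries. Mtdh encodes metadherin. The labels number the libraries as replicates and do not say whether each came from a separate animal, so p-values refer to spread between libraries. In limma the spread of each gene is drawn toward a trend over all genes tested, so it is not that of the gene alone. Sorted cells were live and positive for CD45, CD3e and CD8, and all 8 libraries shared the tumour line and the sort. The labels give no strain, sex or age of the mice and do not say which cells lacked Mtdh beyond the genotype of the host.

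Imprinted genes are expressed mainly from the chromosome inherited from 1 parent. H19 is a long noncoding RNA expressed from the maternal chromosome, and its neighbour Igf2, a fetal growth factor, is expressed from the paternal one. A control region between them that binds the insulator protein CTCF on the maternal chromosome sets this choice. H19 is abundant in the embryo and falls after birth in most tissues, with skeletal muscle as a known exception. Many paternally expressed genes promote growth and many maternally expressed ones, among them Igf2r, Cdkn1c and Grb10, restrain it. The set is often described as a network of growth genes that are switched down together after birth.

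H19 also gives rise to a microRNA, miR-675, and 2 other members host microRNAs of their own, miR-483 in Igf2 and miR-335 in Mest. Their sequences are shown because these are the small RNAs that the host transcripts can yield. The miR-675 hairpin lies within an exon, so gene values of H19 cover it, whereas miR-483 and miR-335 lie within the spans of Igf2 and Mest but in none of their annotated exons (GENCODE vM21). The hairpin of miR-675 is 84 bases long and lies in exon 1 of the 5 exons of an annotated H19 transcript (GENCODE vM21), at chr7:142577064-142577147 on the minus strand of GRCm38. In the RefSeq sequences below, written 5′ to 3′, capitals mark the seeds, bases 2 to 8 of each mature microRNA, which pair with target RNAs.
miR-675 hairpin: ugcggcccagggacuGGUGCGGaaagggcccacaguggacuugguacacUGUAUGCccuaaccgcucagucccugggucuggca
miR-675-5p: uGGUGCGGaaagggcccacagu
miR-675-3p: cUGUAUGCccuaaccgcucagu
miR-483-5p: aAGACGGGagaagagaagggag
miR-483-3p: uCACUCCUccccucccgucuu
miR-335-5p: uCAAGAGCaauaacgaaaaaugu
miR-335-3p: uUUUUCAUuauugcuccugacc
The 6 seeds differ from one another, and 0 other mature microRNAs of the RefSeq table carried any of them. MicroRNA levels were not analysed here, and the values below are those of the host genes.

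The libraries held an estimated 16400000 to 29600000 reads. The number of distinct cDNA fragments behind them was estimated from the share of undetected genes. By this estimate a single fragment was worth a normalized value of 25.4 to 139, depending on the library. Lower or similar values were treated as indistinguishable from absence. The estimate assumes that each gene stands at its mean in the other libraries, so real differences between libraries also enter it. Mtdh averaged 3905 ± 1179 with the knockout and 9113 ± 2699 without it (SD, n = 4 each), and the genotypes did not overlap. Transcripts of cells outside the gate were present throughout. Lyz2, a macrophage gene, ranged from 75242 to 211543, against 1565 to 13355 for Cd8a. In such bulk samples, fewer cells of a type and less RNA per cell cannot be told apart.

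H19 (ENSMUSG00000000031, lncRNA, minus strand, chr7:142129266-142131880 of mm39) was the most abundant member. Its normalized values were 3225, 3039.6, 4022 and 3398 in KO libraries 1 to 4, and 11572, 13046.5, 5360.0 and 5797 in WT libraries 1 to 4. All 4 KO values lay below all 4 WT values, the KO values close together and the WT values at a pair of levels, with libraries 1 and 2 high. The means were 3421 ± 427 (KO) against 8944 ± 3936 (WT) (SD, n = 4 each), a ratio of 2.61 between WT and KO. On the log2(value + 1) scale the difference was -1.28 (SE 0.26). H19 was the 1 member of 9 past the threshold of 0.05 (limma adjusted p = 0.0426), the value for which it was chosen, where 0.236% of the 16120 genes tested passed in either direction, 0.0248% as lower and 0.211% as higher in KO. H19 and Igf2r had an unadjusted p under 0.05, as did 6.7% of all genes tested. Without KO library 1, 2 or 4 or WT library 1 or 2 the adjusted p was 0.114, 0.145, 0.160, 0.324 and 0.170, so the call ended in 5 of 8 omissions, while the difference stayed between -1.49 and -1.06. With the replicate number as a block the adjusted p was 0.245.

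**Figure D1:**
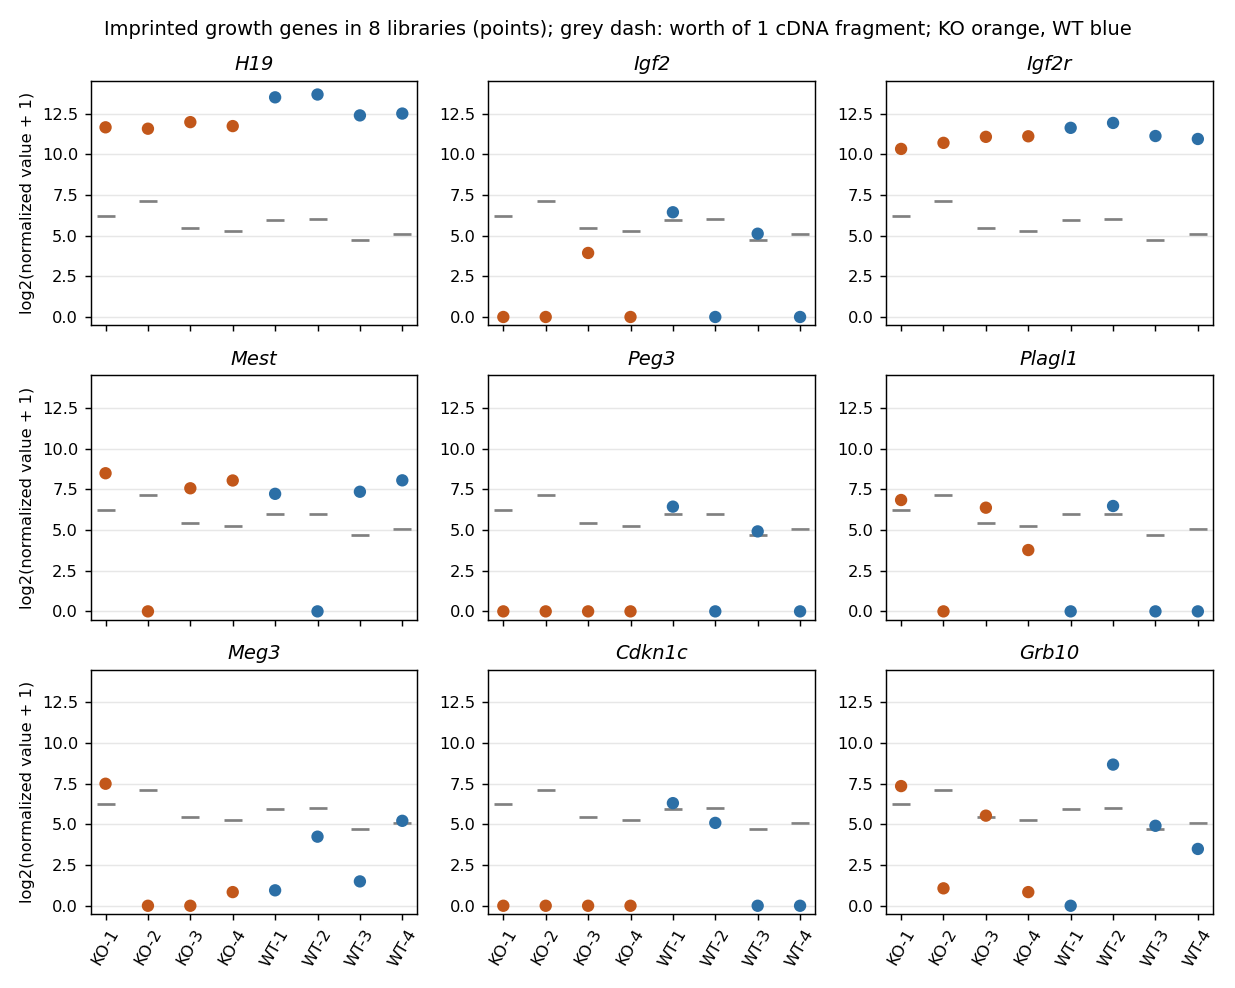
Each panel plots 1 member gene, with the 8 libraries on the horizontal axis and log2(normalized value + 1) on the vertical axis. Grey dashes mark the worth of 1 fragment in each library. H19 and Igf2r sit far above the dashes in all 8 libraries, and Igf2, Peg3, Cdkn1c, Plagl1 and Meg3 lie below or near them.

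In WT libraries 1 and 2, where H19 was highest, a fragment was worth an estimated 61.1 and 63.3, against 25.4 and 32.9 in WT libraries 3 and 4. The high WT values thus came from libraries with fewer estimated fragments. In KO libraries 1 and 2 a fragment was worth 74.0 and 139, and H19 was at 3225 and 3039.6, against 4022 and 3398 in KO libraries 3 and 4. The part of depth in the H19 values was not tested. The H19 values corresponded to an estimated 21.9 to 211 fragments per library. H19 thus had a measured signal in every library.

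Per kb of exon, H19 stood at 1391 ± 173 (KO) against 3636 ± 1600 (WT) (SD, n = 4 each), against 196 ± 46.6 and 302 ± 94.8 for Igf2r. The order of these 2 members was therefore the same in both groups, with H19 higher by a factor of 7.09 in KO and 12.1 in WT. Exon lengths (2.46 kb for H19 and 9.31 kb for Igf2r) were those of GENCODE vM21, matched by gene identifier. Among genes annotated as long noncoding RNA, H19 ranked 6 of 1999 by mean normalized value. The level of Mest per kb, 51.3 ± 38.5 (KO) against 36.5 ± 27.6 (WT), was lower than that of Igf2r. The other 6 members had means of 0 to 13.6 per kb, whose order is not resolved at this depth.

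Igf2r (ENSMUSG00000023830, chr17:12901293-12988551) encodes the receptor that takes up IGF2 for breakdown in lysosomes and carries mannose-6-phosphate-tagged enzymes there. Its values were 1285, 1663, 2149.5 and 2201 in KO libraries and 3155, 3887, 2227 and 1962 in WT libraries. WT libraries 1 and 2 were again the highest, and WT library 4 lay within the KO range, so the groups overlapped. The log2 difference was -0.60 (SE 0.27), and Igf2r was not past the threshold (limma adjusted p = 0.730). With weights per sample the difference was -0.29.

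The ligand Igf2 (ENSMUSG00000048583, chr7:142204503-142220553) was close to absent. It was listed at 0 for KO libraries 1, 2 and 4 and WT libraries 2 and 4. KO library 3 had 14.3, WT library 1 had 85.6 and WT library 3 had 33.7. The highest of these corresponded to 1.40 fragments, so no difference in Igf2 was detectable at this depth. H19 was at 3039.6 or more in the same libraries.

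Of the other paternally expressed members, Mest (ENSMUSG00000051855), a hydrolase-like protein of mesoderm, was the best measured. It had values of 358, 188 and 263 for KO libraries 1, 3 and 4, and 148, 162 and 265 for WT libraries 1, 3 and 4. Estimates of 7.39e-24 in KO library 2 and 1.44e-18 in WT library 2 amount to absence. The groups overlapped, with KO library 1 above every WT value (log2 difference 0.37, SE 2.01) and 1 library of each group at 0. Peg3, a zinc finger protein, was listed at 0 for every KO library and for WT libraries 2 and 4, with 85.6 for WT library 1 and 29.2 for WT library 3. Plagl1, a zinc finger transcription factor that acts on other imprinted genes, stood at 114, 81.8 and 12.6 in KO libraries 1, 3 and 4, at 88.0 in WT library 2, and at 0 in the other 4 libraries. Neither gene reached 2 fragments in any library, the highest being 1.40 for Peg3 and 1.91 for Plagl1.

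Among the maternally expressed members other than H19 and Igf2r, Cdkn1c, an inhibitor of cyclin-dependent kinases, was listed at 0 in 6 libraries and at 78.1 and 33.1 in WT libraries 1 and 2. Grb10, an adaptor that dampens insulin and IGF receptor signalling, stood at 163, 1.10, 45.5 and 0.789 in KO and at 0, 408, 29.2 and 10.2 in WT. WT library 2 alone carried more than 3 fragments of Grb10. Meg3, a long noncoding RNA of the Dlk1 locus, stood at 179.8, 0, 0 and 0.789 in KO and at 0.930, 18.0, 1.82 and 36.3 in WT, and its highest value was 2.43 fragments. Grb10 was at 0 in 1 WT library and Meg3 in 2 KO libraries, and the groups overlapped for each of the 3 genes.

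Across the 9 members, all of which had a mean of at least 10, 7 log2 differences were negative and 2 positive, with a median of -0.89, against a median of -0.12 and 56.6% negative over all genes tested. Of the 9 members, 5 exceeded 3 fragments in none of the libraries and 2, H19 and Igf2r, did so in all 8. The median is the value of Meg3, which was under 3 fragments in every library and whose mean was higher in KO (45.1 against 14.2). With a pseudocount of 10 the members had 6 negative and 3 positive differences and a median of -0.60, and with a pseudocount of 0.5 the median was -1.28. For Peg3 and Cdkn1c, at 0 in every KO library and counted among the negative ones, the size of the difference depends on the pseudocount and is not given. H19 was the 1 member whose groups did not overlap, and over all genes tested 2.09% were lower and 2.02% higher in KO without overlap.

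The genes around H19 were examined next, because genes of a cluster can share regulatory sequence. Within 200000 bases, 8 other genes were listed and 6 had a mean of at least 10. By limma 0 of these 6 passed the threshold, and 0 had an unadjusted p under 0.05. The best measured was Ctsd, the lysosomal protease cathepsin D, 187 kb away, at 13462 ± 2403 (KO) against 17725 ± 1943 (WT) (SD, n = 4 each; log2 difference -0.41, SE 0.20, limma adjusted p = 0.747). Lsp1, a leukocyte actin-binding protein 80.7 kb away, stood at 610.0 ± 305 (KO) against 567 ± 289 (WT). The nearest genes, Nctc1 (a noncoding RNA 16.9 kb away) and Mrpl23 (a mitochondrial ribosomal protein 34.8 kb away), were at 0 or a few fragments in every library, and so were Syt8, Prr33 and the muscle troponin gene Tnnt3. The strand of the libraries was not stated, so reads of overlapping genes on opposite strands cannot be told apart.

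**Figure D2:**
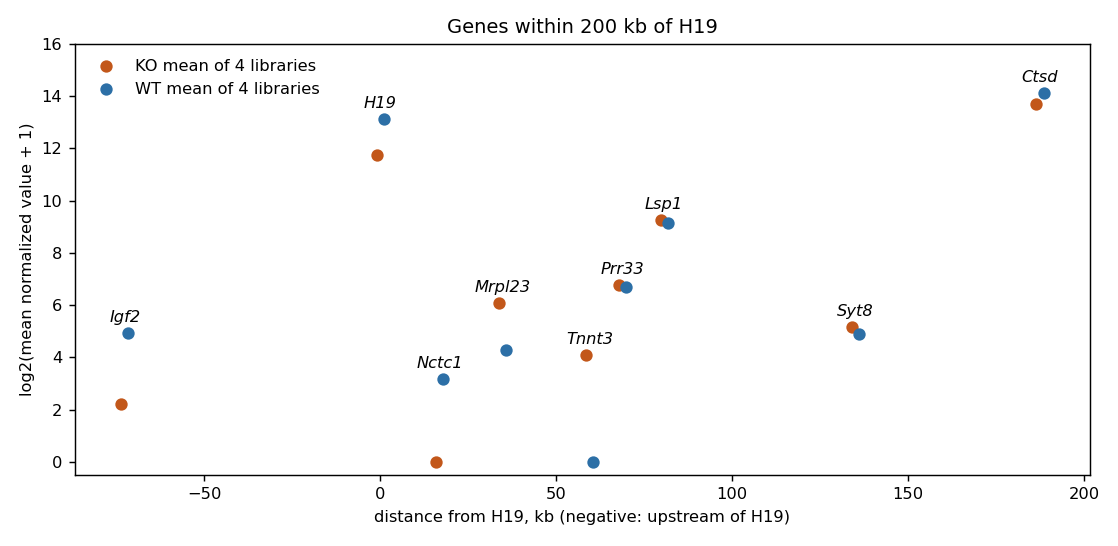
Points give the mean of 4 KO or 4 WT libraries as log2(mean normalized value + 1) on the vertical axis, against the distance from H19 in kb on the horizontal axis. H19 stands between genes that are much lower in both groups, with Igf2 on one side and Nctc1 and Mrpl23 on the other, and Ctsd at 187 kb is the only one of the 8 neighbours at a higher level.

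Other imprinted genes were described from 2 lists, by the parental chromosome from which each is known to be expressed in at least some tissues. Among maternally expressed genes, 22 of 31 were listed, 20 were tested and 0 passed by limma in either direction, with 0 at an unadjusted p under 0.05. Their median log2 difference was -0.14, with 13 negative, against a median of -0.12 and 56.6% negative over all genes tested. The most abundant was Cd81, a tetraspanin, at 16520.1 ± 5597 (KO) against 21458 ± 8087 (WT) (log2 difference -0.37, SE 0.29). That difference was -0.10 without KO library 3 and -0.087 with weights per sample. Without WT library 1, 2 or 4 it was -0.23, -0.19 and -0.59. Nap1l4, a histone chaperone, had a difference of 0.61 (SE 0.33), or 0.30 without WT library 2. Dcn, the proteoglycan decorin of connective tissue, averaged 153 ± 174 (KO) against 227 ± 58.3 (WT), with KO library 2 at 0. Its log2 difference of -2.37 (SE 1.45) was -0.56 without that library and -1.51 with a pseudocount of 10.

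Among paternally expressed genes, 15 of 27 were listed, 11 were tested and 0 passed by limma. At an unadjusted limma p under 0.05 there was 1, Peg10, against 6.7% of all genes tested. The median was -0.52, with 8 negative and 3 positive, against -0.12 and 56.6% negative over all genes tested. Of those tested, Mkrn3 (log2 difference -3.51) and Mcts2 (0.24) were under 3 fragments in every library. Peg10, a gene derived from a retrotransposon and needed in the placenta, stood at 735, 889.5, 756 and 692 in KO and at 1695, 2902, 1109 and 736 in WT. WT libraries 1 and 2 were the highest and WT library 4 lay within the KO range (log2 difference -0.89, SE 0.36, limma adjusted p = 0.679). Without WT library 2 the difference was -0.54. Sgce, the epsilon-sarcoglycan gene that lies 98 bases from Peg10 in the opposite orientation, stood at 0, 0, 37.7 and 56.0 in KO and at 142, 130, 53.8 and 121 in WT (limma adjusted p = 0.754). It exceeded 3 fragments in 1 library. Impact, an inhibitor of the kinase GCN2, had the highest mean of the list, at 1661 ± 685 (KO) against 1490 ± 272 (WT) (log2 difference 0.08, SE 0.30).

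A further list, of genes commonly placed with the members in the imprinted gene network, overlapped the 2 above. Of its 14 genes, 6 were tested and 0 passed by limma. At an unadjusted limma p under 0.05 there was 1 (Peg10), against 6.7% of all genes tested. The median was -0.61, with 5 negative and 1 positive, against a median of -0.12 over all genes tested. The negative ones include Sgce, over 3 fragments in 1 library, and Dcn, at -0.56 without KO library 2. Gnas, which encodes the stimulatory G protein alpha subunit, was the most abundant, at 4915 ± 1003 (KO) against 6103 ± 489 (WT) (log2 difference -0.33, SE 0.20, limma adjusted p = 0.770). Without KO library 1 the difference was -0.19.

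**Figure D3:**
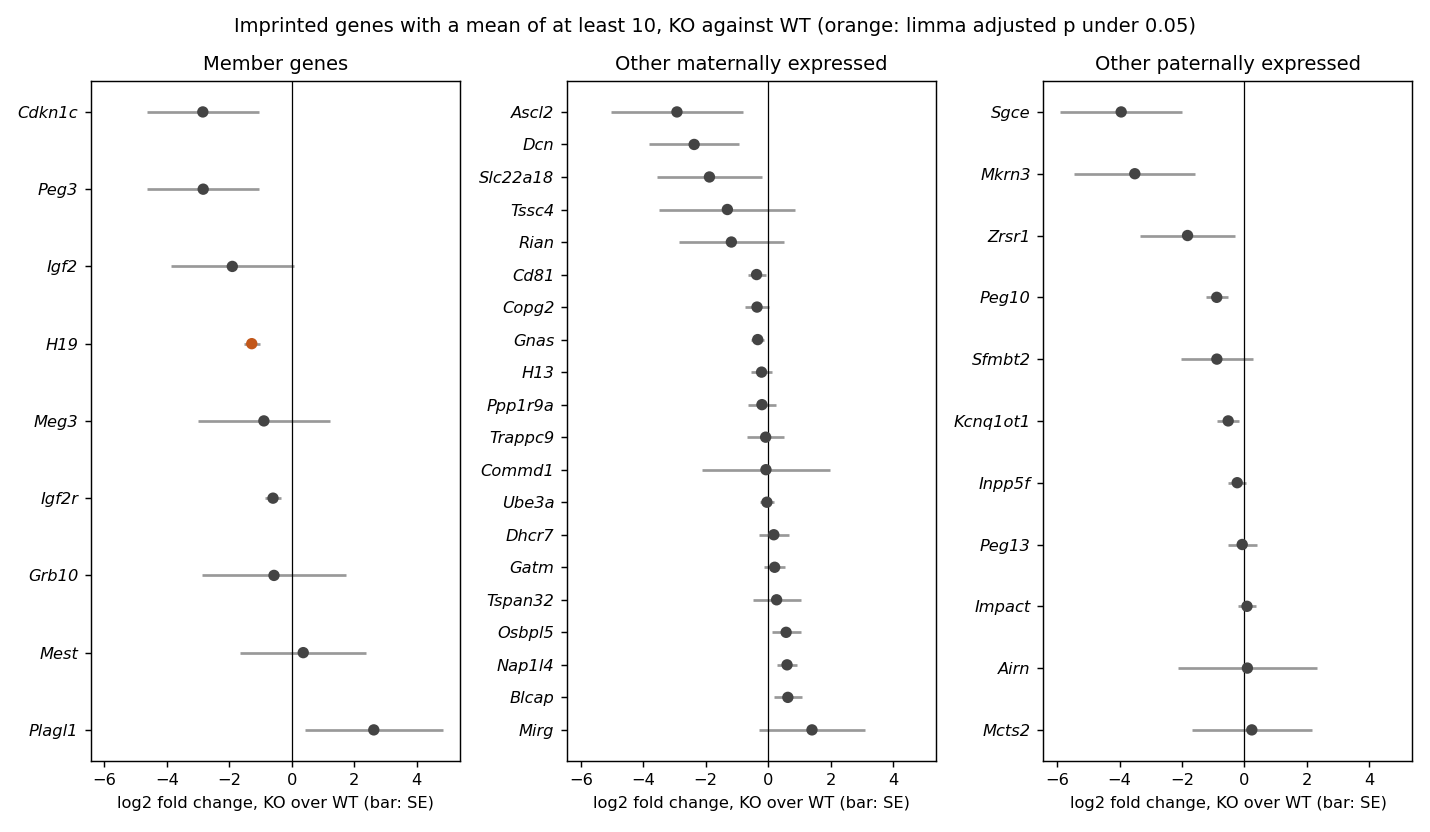
Points give the log2 fold change of KO over WT and bars its standard error, for members and for other imprinted genes by parental expression. H19, in orange, is the only point past the limma threshold, at -1.28 with an SE of 0.26.

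In the IGF pathway, 0 of 4 tested ligands and receptors passed by limma, with 1 at an unadjusted p under 0.05. For this and the following IGF lists, 6.7% of all genes tested had an unadjusted limma p under 0.05. Without overlap, 2.09% of all genes tested were lower and 2.02% higher in KO. That gene was Igf1, a growth factor made in tumours by macrophages and stromal cells. Its values were 1086, 1733, 575 and 674 in KO and 1798, 1607, 1900.3 and 1735 in WT. KO library 2 lay within the WT range, and the other 3 KO libraries were below it (log2 difference -0.93, SE 0.32, limma adjusted p = 0.535). Igf1r, the receptor for both growth factors, stood at 4140 ± 1474 (KO) against 3866 ± 993 (WT) (log2 difference 0.07, SE 0.25). Insrr was above 0 in KO library 1 alone.

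Of the binding proteins and proteases that set free IGF, 7 were tested and 0 passed by limma, with 1 at an unadjusted p under 0.05. That gene was Pappa2, a protease of IGF binding proteins. It stood at 0.904, 0, 2.60 and 0 in KO and at 53.0, 92.7, 131 and 165 in WT, without overlap (limma adjusted p = 0.432), and at most 5.17 fragments stood behind any value. Igfbp4, the most abundant binding protein, stood at 6115 ± 1349 (KO) against 6002 ± 1233 (WT) (log2 difference 0.02, SE 0.22). Htra1, a protease, had a difference of -0.50 (SE 0.31), which was -0.29 without WT library 2 and -0.76 without WT library 4.

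Of genes that carry the signal onward, 16 were tested and 0 passed by limma, with 2 at an unadjusted p under 0.05. Both were higher in mean in KO. Irs2, an adaptor of the insulin and IGF receptors, stood at 5305, 7725, 5211 and 6231 in KO and at 3494, 3386, 2915 and 4925 in WT, without overlap (log2 difference 0.74, SE 0.22, limma adjusted p = 0.321). Pik3r1, the regulatory subunit of PI3 kinase, overlapped (0.63, SE 0.22, limma adjusted p = 0.573).

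Genes whose proteins bind H19 or act with it, and genes that keep imprints, gave 0 calls by limma among 11 and 17 tested, and 0 at an unadjusted p under 0.05 in either list. Of the RNA-binding proteins, Igf2bp2 stood at 242 ± 66.3 (KO) against 386 ± 95.1 (WT) (log2 difference -0.67, SE 0.52), and Igf2bp1 was above 0 in KO libraries 1 and 2 alone, at under 2 fragments. Hmga2, a chromatin protein of embryonic and tumour cells, was the most abundant gene of its list at 7255 ± 1429 (KO) against 6929 ± 3984 (WT). Among imprint keepers, Trim28, a corepressor, stood at 1694 ± 140.1 (KO) against 2202 ± 504 (WT) (log2 difference -0.35, SE 0.24). Zfp57, its partner on methylated imprints, stood at 0, 0, 1.30 and 116 in KO and at 34.4, 475, 31.0 and 62.3 in WT (limma adjusted p = 0.760), and it exceeded 3 fragments in 2 libraries. Arid4b had a difference of -0.08 (SE 0.22).

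Markers of other cell types were summed beside H19. For comparison with each marker list, 6.7% of all genes tested had an unadjusted limma p under 0.05. Genes lower in KO without overlap made up 2.09% of them, and genes higher without overlap 2.02%. Of all genes tested 56.6% had a negative log2 difference, with a median of -0.12. The 14 fibroblast markers summed to 70901, 54217, 57890 and 48974 in KO and to 70643, 88263, 70329 and 60481 in WT, with 11 of 14 log2 differences negative, a median of -0.64 and 0 past the limma threshold (6 at an unadjusted p under 0.05). The smallest p-values were those of Col6a2, a collagen VI chain (log2 difference -1.62, SE 0.41, limma adjusted p = 0.145), and Postn, the matrix protein periostin (-1.33, SE 0.35, limma adjusted p = 0.201). For each 100 units of this sum H19 was at 4.55, 5.61, 6.95 and 6.94 in KO and at 16.4, 14.8, 7.62 and 9.58 in WT, without overlap. Fn1, the gene of fibronectin, which macrophages also make, was the largest part of the sum (34540 to 40557 in KO, 41999.8 to 52638 in WT), and Thy1 is also a T cell gene. Which cells, tumour cells among them, gave the RNA of the other genes in this list was not tested. Without those 2 genes, a choice made after the values were seen, H19 was at 11.1, 37.3, 30.4 and 48.4 in KO and at 58.2, 37.8, 27.6 and 44.5 in WT, and the groups overlapped. KO libraries 1 and 3 had trimmed sums within the WT range, and KO library 1 had the lowest of these ratios.

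The 14 macrophage markers ranged in sum from 116990 to 257951 (KO) and from 195621 to 305168 (WT), with 13 of 14 log2 differences negative (median -0.48) and 0 past the limma threshold (5 at an unadjusted p under 0.05). Spp1, the gene of osteopontin, and Mrc1, the mannose receptor, had the smallest p-values, both without overlap (log2 differences -0.73 and -0.73, SE 0.20 and 0.21, limma adjusted p = 0.267 and 0.286). For each 100 units of that sum H19 ranged from 1.25 to 3.44 (KO) and from 2.13 to 5.19 (WT), with overlap. Lyz2 alone made up 64.3% to 72.5% of the sum. Without it, a choice made after the values were seen, H19 was at 4.54, 5.74, 9.64 and 5.12 in the KO libraries and at 12.4, 18.2, 7.003 and 8.84 in the WT libraries, again with overlap. The 12 CD8 T cell markers ranged in sum from 20905 to 45476 (KO) and from 7844 to 26968 (WT). Opposite to the macrophage and fibroblast lists, 11 of the 12 log2 differences were positive, with a median of 0.74 and 0 past the limma threshold (3 at an unadjusted p under 0.05). Cd3e, a T cell receptor subunit, differed by 1.31 (SE 0.31, limma adjusted p = 0.116), and Cd8a, the coreceptor used in the sort, by 1.15 without overlap (SE 0.34, limma adjusted p = 0.327). Lck, a T cell kinase, had the highest mean of the list (0.74, SE 0.27, limma adjusted p = 0.618). For each 100 units of the CD8 T cell sum H19 was at 15.4, 9.29, 8.85 and 9.83 in the KO libraries and at 57.9, 166, 23.4 and 21.5 in the WT libraries, without overlap. H19 by itself did not overlap and most of these markers had positive differences, so this ratio is not separate evidence. WT library 2, with the highest H19, had the lowest sum of T cell markers and the highest sum of fibroblast markers. Skeletal muscle markers, of a tissue that keeps H19 after birth, ranged in sum from 195 to 355 (KO) and from 1.86 to 268 (WT), and 6 of the 10 were not listed. Tumour and epithelial markers ranged in sum from 1219 to 1921 (KO) and from 828 to 2190.1 (WT). That list holds epithelial genes only, such as keratins, so its sum does not measure tumour cells that lack them. The part of each of these cell types in the H19 difference was not tested.

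**Figure D4:**
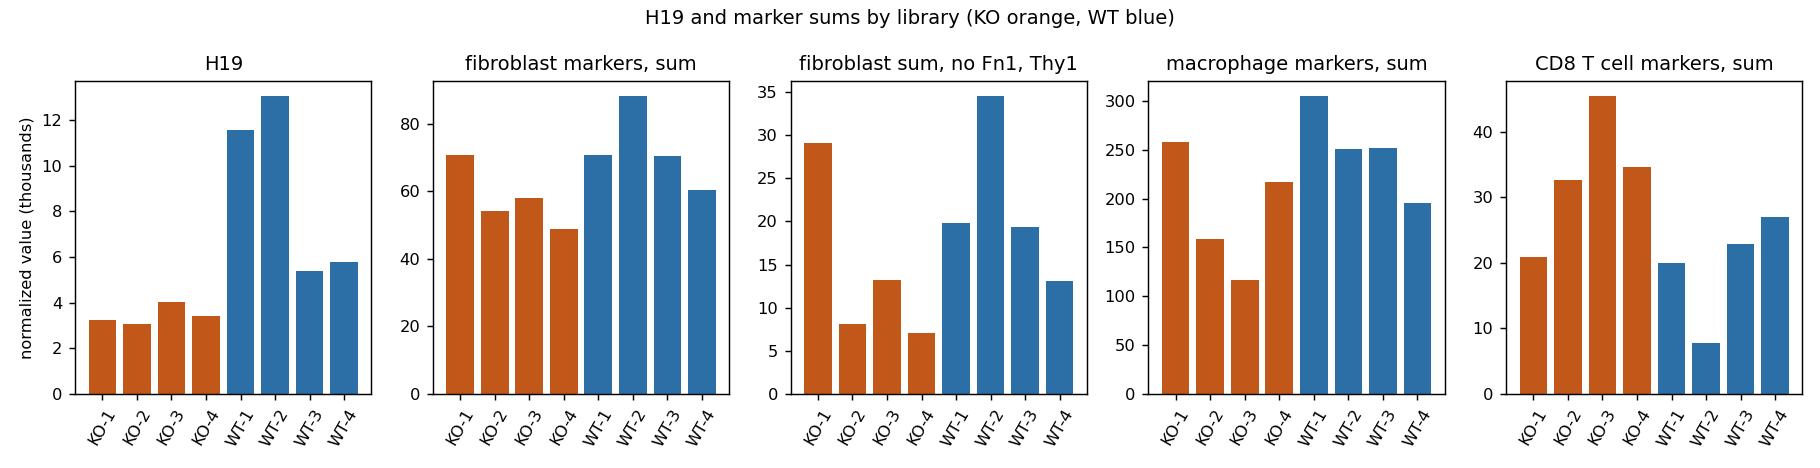
Bars give, for each library, the normalized value of H19 and the summed values of the fibroblast markers (with and without Fn1 and Thy1), macrophage markers and CD8 T cell markers, each on an axis of its own that starts at 0. H19 is at most 4022 in the 4 KO bars and at least 5360.0 in the 4 WT bars, while each marker sum overlaps between the groups.

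The genes whose pattern over the 8 libraries was nearest to that of H19 were found by the root mean square difference of log2(value + 1), each gene centred on its own mean, among 10241 other genes with a mean of at least 100. The 5 nearest were Mmp16, a membrane-bound matrix protease (0.28), Col4a2, a basement membrane collagen chain (0.29), Necap1, an endocytosis adaptor (0.29), Gxylt2, a xylosyltransferase acting on Notch (0.29), and Dnajc2, a ribosome-bound chaperone (0.32). Mmp16 stood at 371 ± 63.1 (KO) against 887 ± 255 (WT), and Col4a2 at 176 ± 35.3 and 412 ± 237 (SD, n = 4 each). All 5 were highest in WT libraries 1 and 2. Since nearness covers all 8 libraries, lower values in KO and high values in WT libraries 1 and 2 are part of how they were found. Peg10 ranked 12 (0.35) and Igf2r 34 (0.42) in this order. Igf1 ranked 1590, Hmga2 2946 and Mest 10184.

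**Figure D5:**
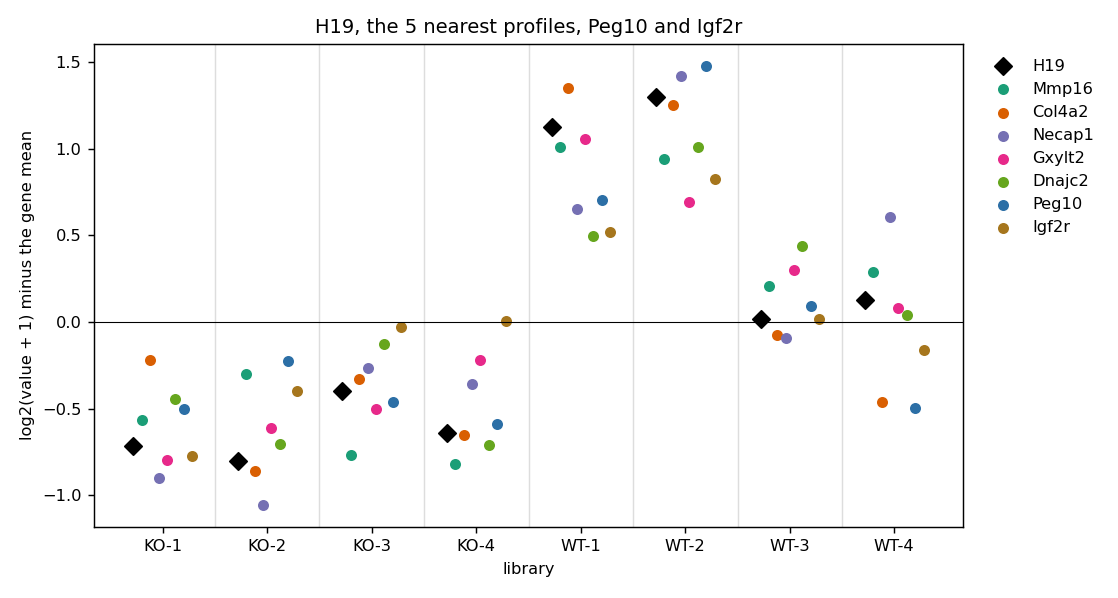
The vertical axis gives log2(value + 1) minus the mean of the gene over the 8 libraries on the horizontal axis, for H19 (diamonds), its 5 nearest genes, Peg10 and Igf2r. All 8 genes are highest in WT libraries 1 and 2, which for the 5 nearest is part of how they were found. In WT libraries 3 and 4 H19 is close to its mean.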

How the data were processed

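RNA of 4 KO and 4 WT libraries was analysed. The authors deposited a normalized signal for each gene, which its label ties to DESeq2 normalization and which is not per length. Software named in the submitters' processing notes is Partek, STAR 2.7.8a and DESeq2, the build is mm39, and no roles are given. Per the labels' protocols, a kit against ribosomal RNA was used before library preparation. The smallest values fell on steps of 0.788 to 1.30, taken as 1 read in their library. Only 81.4% to 88.0% of low values were whole multiples (tolerance 0.02 reads), so count models were not applied. The worth of a fragment is the value at which a Poisson draw leaves undetected (under 3 reads) the observed share of genes averaging 20 to 500 elsewhere, small RNAs left out. Ends of genes are 1 less than the listed stop, since stop minus start equals the annotated length for 98.5% of 19544 identifiers matched to GENCODE vM21.

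For genes averaging 10 or more, log2(value + 1) was fitted in limma 3.58.1 (R 4.3.3; lmFit, then eBayes with trend), comparing KO with WT in a two-sided test, with Benjamini-Hochberg adjustment over all 16120 and a threshold of 0.05. The script was tested on simulated data, where 29% of log2 changes of 1 and 89% of log2 changes of 2 in abundant genes were recovered. A list with 0 calls therefore does not show that its genes were unchanged. Members and lists were chosen with earlier results of these data known. Genes named are the members, genes within 200000 bases of H19, and in each list those past the threshold, the 2 with the smallest p and the most abundant one, with the 5 nearest profiles. Of the marker lists, this was done for CD8 T cells, macrophages and fibroblasts, after the values were seen, and Thy1 is named outside it. Alternatives were the pseudocount, the minimum mean, scaling (trimmed mean, upper quartile or quantiles), the replicate number as a block, weights per sample, robust eBayes and leaving out each library.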

Additional observations from a re-analysis of the deposited data

Results flagged for a closer look

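Within a group of 4 libraries, 11 of 84 groups (42 genes) had 1 library that stood apart from the other 3 by Dixon's ratio. Its 95% critical value was used, which normally distributed values exceed in about 1 group in 20. A single value above 0 beside 3 at 0 always exceeds it, so the count cannot be set against that share. Among members, these were Igf2 in KO library 3 (14.3, the others at 0), Plagl1 in WT library 2 (88.0, the others at 0), Meg3 in KO library 1 (179.8, the others at most 0.789) and Grb10 in WT library 2 (408, the others at most 29.2). All but Grb10 rest on under 3 fragments. Near H19, Lsp1 was high in WT library 4 (997, the others 375 to 452), Tnnt3 in KO library 3 (63.6), Mrpl23 in WT library 3 (63.8) and Nctc1 in WT library 4 (32.3). Insrr was high in KO library 1 (99.4), and Zfp57 in KO library 4 (116) and WT library 2 (475, the others 31.0 to 62.3).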

How the results depend on the processing

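H19 was lower in KO under all 18 alternatives. Its call ended with a pseudocount of 0.5 (log2 difference -1.28, limma adjusted p = 0.0541), a minimum mean of 50 (-1.28, 0.103) and the replicate block (-1.28, 0.245), so that 0 members were called in each. It held with a pseudocount of 10, no filter, TMM, quantile and upper-quartile scaling, sample weights (-0.97) and robust hyperparameters. With a library left out the difference was -1.49 to -1.06, with an adjusted p of 0.00962 to 0.324, and 0 or 1 members were called. Same-numbered libraries did not deviate together (correlations 0.00924 to 0.122 over 10242 genes, and 1 of the 4 KO libraries correlated best with its own number), so the replicate block is a check only. Over all genes 38 were called, against 63 with a pseudocount of 10, 15 with a minimum mean of 50, 112 with sample weights, 0 with the replicate block, and 7 to 70 with a library left out. The 8 other imprinting, IGF and H19 lists had 0 calls in every alternative, apart from Igf1 with sample weights (-1.25, adjusted p = 0.0115), where 1 gene of IGF ligands and receptors was called. Marker lists, run after the values were seen, gained calls: Cd3e with a pseudocount of 10, sample weights or WT library 4 left out (adjusted p = 0.0417, 0.00725 and 0.0244), Mrc1 with quantile normalization (0.0459), Col6a2 with sample weights or without KO library 3 or WT library 4 (0.0118, 0.0287 and 0.0263), and Postn with sample weights (0.0123). Signs turned for Meg3 with a pseudocount of 10 (0.073), Grb10 and Igfbp4 with quantile normalization (1.18 and -0.053), and Impact and Igf1r with sample weights (-0.18 and -0.027). With a library left out, Mest ranged from -1.52 to 2.38, Grb10 from -1.99 to 0.90, Impact from -0.16 to 0.33, Igf1r from -0.15 to 0.23, Igfbp4 from -0.12 to 0.19, Hmga2 from -0.019 to 0.54 and Arid4b from -0.21 to 0.034. The causes were not tested. Dlk1 gave no value, and low genes gave none where their mean was under the minimum. At the estimated depth in fragments, no difference was detectable for 5 of the 9 members.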
